A study of Neurospora crassa with 2 samples.

Results

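The cell wall integrity kinase pathway of the filamentous fungus Neurospora crassa is described here through the transcripts of 4 kinase genes, pkc-1, mik-1, mek-1 and mak-1, chosen by name from the 9730 genes measured. They encode protein kinase C and the 3 tiers of a mitogen-activated protein (MAP) kinase cascade. The locus tags of 3 of the 4 genes are in the deposited table. For mak-1 the listed tag, NCU11376, is an older tag of NCU09842 in the reference gene table, and the NCU09842 values were used.

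RNA was sequenced from mycelia, the vegetative hyphae, of 2 strains with 1 library each. Both strains were precultured for 20 h in minimal medium and moved for a further 4 h to salts with 1% cellobiose, a sugar of paired glucose units that cellulose yields. The first strain, Δ3βG, has 3 β-glucosidase genes deleted (gh1-1, gh3-3 and gh3-4), which encode enzymes that cleave cellobiose. The second, Δ3βGΔncw-1, carries the same 3 deletions and also lacks ncw-1, the gene of a non-anchored cell wall protein. By these labels the comparison is of ncw-1 present against ncw-1 absent on a background that lacks the 3 β-glucosidase genes. The genotype label of each strain also carries an a. The libraries differed in mating-type transcripts as well, given below, so ncw-1 was not the only difference seen between the strains. No strain with intact β-glucosidase genes was analysed here, and whether a strain is 1 clone or several is not given in the sources used here.

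The pathway reports the state of the cell wall to the nucleus. Signals from sensor proteins at the cell surface reach protein kinase C. Protein kinase C signals to the MAP kinase kinase kinase MIK-1, which phosphorylates the MAP kinase kinase MEK-1, which in turn phosphorylates the MAP kinase MAK-1. In N. crassa the pathway is known for its roles in hyphal growth, wall integrity and the fusion of cells. Its activity is set by phosphorylation, which RNA levels do not measure.

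Levels are given as RPKM, reads for each kilobase of a gene's model after scaling for library size, as the authors deposited them. The scaling was to 20510798 reads for Δ3βG and 20019350 reads for Δ3βGΔncw-1. There was 1 library per genotype, so differences could not be set against a spread between replicates and were not tested. The 95% intervals come from whole reads recovered from the RPKM values and cover counting error only, with no variation between cultures. A fold is the ratio of the RPKM values; a log2 ratio compares RPKM + 1, with Δ3βGΔncw-1 over Δ3βG. The 2-fold rule on the log2 ratio was applied to genes that had 10 RPKM or more in 1 library at least. In bulk RNA, fewer cells of a type and less RNA per cell cannot be told apart.

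Some facts of the whole libraries touch every value below. The RPKM of ncw-1 was 435 in Δ3βG and 2.62 in Δ3βGΔncw-1, as the labels say, though 198 reads remained in Δ3βGΔncw-1. The 3 deleted β-glucosidase genes were low in both libraries but not at 0. In Δ3βG and Δ3βGΔncw-1, gh1-1 had 1.09 and 3.41 RPKM, gh3-3 had 0.637 and 1.02, and gh3-4 had 0.342 and 0.350. The mating-type A gene matA-1 and the mat A pheromone precursor gene ccg-4 were listed at 0 in Δ3βG. They had 15.4 and 87.9 RPKM in Δ3βGΔncw-1, although the genotype label of each strain carries an a. The mat a pheromone gene mfa-1 had 141 and 35.0 RPKM. Of 7 markers of conidiating cells, 6 reached 10 RPKM, and 3 of those (eas, fl and acon-3) were at least 2-fold lower in Δ3βGΔncw-1. Over all genes at that minimum, 11.1% were at least 2-fold lower. Below that minimum, con-13 had 6.48 and 2.25 RPKM, 2.89-fold lower (95% interval 2.05 to 4.12), while con-6 was 1.81-fold lower, and con-8 and con-10 were 1.05-fold and 1.36-fold higher. None was at 0 in either library. The summed RPKM of the 7 was 61288 and 2523, and without the hydrophobin gene eas it was 938 and 777. The gene eas held 12.8% of the summed RPKM of Δ3βG and 0.355% of that of Δ3βGΔncw-1. The Woronin body gene hex-1, which marks hyphae, had 3247 and 2970 RPKM. The part that mating-type, conidial and library-composition differences have in the results below was not tested. Across 5988 genes at 10 RPKM or more, the median log2 ratio was −0.32, with the middle 50% of genes between −0.67 and 0.13. A log2 ratio above −0.32 is therefore above that of the median gene even where it is below 0. Values relative to the median gene are given beside the values as deposited for the members and for some of the other genes.

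Each of the 4 transcripts differed by less than 2-fold between the strains, but not all in the same direction. The protein kinase C gene pkc-1 was 1.45-fold lower in Δ3βGΔncw-1, mik-1 and mek-1 were each about 1.10-fold lower, and the MAP kinase gene mak-1 was 1.19-fold higher. None of the 4 met the 2-fold rule in either direction. Over all genes the rule was met by 8.08% in the higher and 11.1% in the lower direction, 19.2% in all, so a count of 0 of 4 is near the background. Relative to the median gene the count was also 0 of 4, against 11.3% of all genes in the higher and 5.73% in the lower direction, 17.0% in all. The median log2 ratio of the 4 was −0.14 beside −0.32 over all genes. The balance of all genes past 2-fold depended on the scaling, since 42.2% of them were higher in Δ3βGΔncw-1 with RPKM as deposited and 66.3% relative to the median gene.

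**Figure D1:**
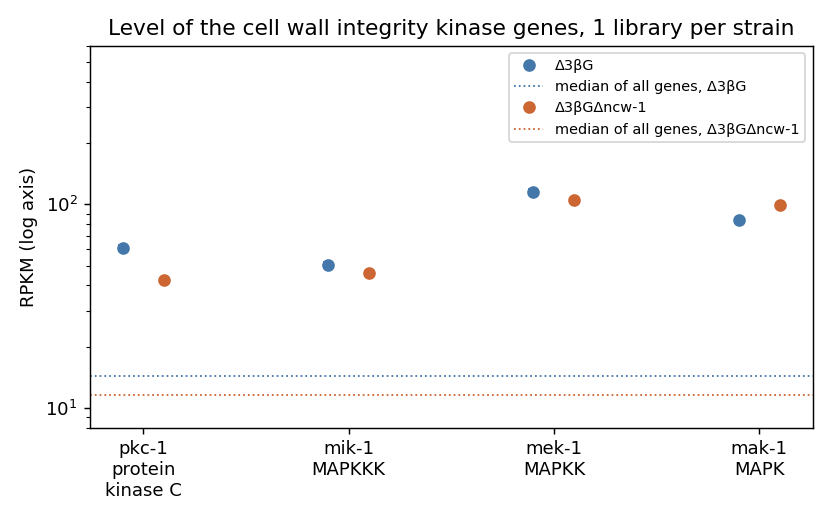
RPKM on a log axis of the 4 kinase genes in the single Δ3βG library and the single Δ3βGΔncw-1 library. Bars, mostly smaller than the points, are exact 95% Poisson intervals of the recovered reads, dotted lines are the median RPKM of all genes, 14.4 and 11.6, and every point lies above both lines, with pkc-1 and mik-1 the lowest in each library.

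The gene pkc-1 (NCU06544, pkc in the reference table) encodes protein kinase C, which stands above the MAP kinase cascade. Its level was 61.2 RPKM in Δ3βG and 42.3 RPKM in Δ3βGΔncw-1, from 5747 and 3877 reads. It was thus 1.45-fold lower in Δ3βGΔncw-1 (95% interval 1.39 to 1.51). Its log2 ratio of −0.52 became −0.20 relative to the median gene, and 35.0% of genes had a lower one. The level of pkc-1 was 1.21 times that of mik-1, the next gene of the pathway, in Δ3βG and 0.923 times in Δ3βGΔncw-1. That ratio between the genes, which no scaling of the libraries alters, was 1.31-fold smaller in Δ3βGΔncw-1 (1.24 to 1.39).

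At the top of the kinase cascade, mik-1 (NCU02234) encodes the MAP kinase kinase kinase. Its level was 50.5 RPKM in Δ3βG and 45.8 RPKM in Δ3βGΔncw-1, from 5629 and 4985 reads, which was 1.10-fold lower (1.06 to 1.15). Its log2 ratio was −0.14 with RPKM as deposited and 0.18 relative to the median gene, so the direction rests on the scaling. The MAP kinase kinase gene mek-1 (NCU06419), whose product is the substrate of MIK-1, had 115 RPKM in Δ3βG and 105 RPKM in Δ3βGΔncw-1. That was also 1.10-fold lower (1.05 to 1.14), and its log2 ratio of −0.13 likewise became 0.19 relative to the median gene. The lengths that fitted mek-1 gave either 4782 and 4250 or 7173 and 6375 reads, and the smaller numbers were used because they give the wider interval. The mek-1 transcript was 2.28 times as abundant as that of mik-1 in Δ3βG and 2.29 times in Δ3βGΔncw-1. This ratio was 1.00 times as large in Δ3βGΔncw-1 as in Δ3βG, with a counting interval from 0.948 to 1.06, so a difference between these neighbouring tiers of more than about that size was not seen in this pair of libraries.

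The last kinase gene, mak-1 (NCU09842), encodes the MAP kinase that MEK-1 phosphorylates. Its level was 83.4 RPKM in Δ3βG and 99.3 RPKM in Δ3βGΔncw-1, from 6189 and 7199 reads. It was the only one of the 4 that was higher in Δ3βGΔncw-1 with RPKM as deposited, by 1.19-fold (1.15 to 1.23). Its log2 ratio was 0.25, or 0.57 relative to the median gene, and 80.1% of genes had a lower one. In the reference gene table mak-1 shares 1160 bases with the span of NCU09843, which had 5.32 and 1.90 RPKM. The overlap of pkc-1 with NCU06546, which had 6.02 and 8.52 RPKM, is only 9 bases. Whether reads in such overlaps were separated by strand is not given in the sources used here. The spans of mik-1 and mek-1 overlapped neither neighbour.

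**Figure D2:**
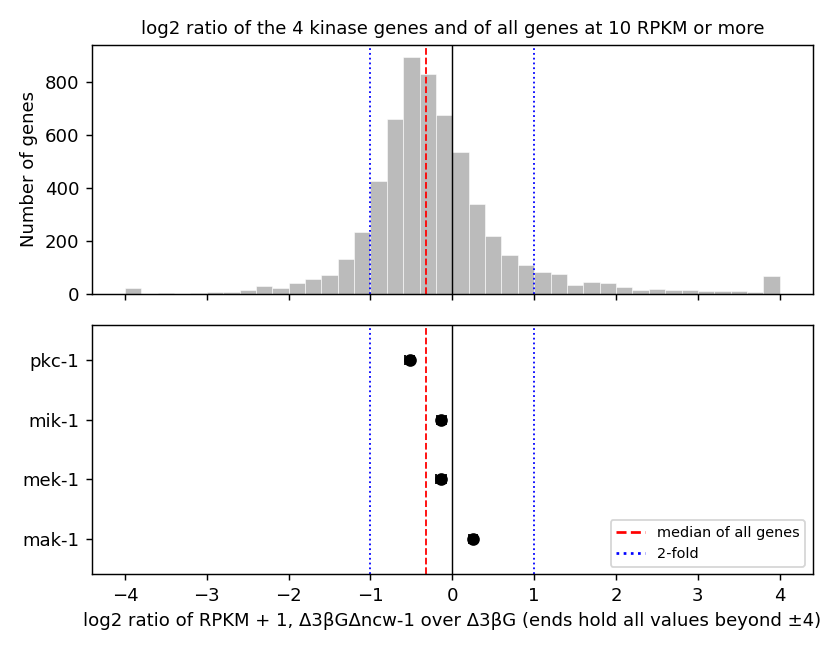
Upper panel, number of genes by log2 ratio (RPKM + 1 of Δ3βGΔncw-1 divided by that of Δ3βG) for the 5988 genes at 10 RPKM or more; lower panel, the 4 kinase genes with bars for the 95% counting interval. All 4 lie between the dotted 2-fold lines; pkc-1 lies below the dashed median of all genes, −0.32, and mik-1, mek-1 and mak-1 above it, while only mak-1 lies above 0.

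Ratios between members compare the tiers without regard to library scaling. The mak-1 level was 1.65 times the mik-1 level in Δ3βG and 2.17 times in Δ3βGΔncw-1, a ratio 1.31-fold larger (1.25 to 1.38). The genes pkc-1 and mak-1, at the ends of this kinase series, had the folds furthest apart of the 4. Against pkc-1, mak-1 was 1.36 times as abundant in Δ3βG and 2.35 times in Δ3βGΔncw-1, a ratio 1.72-fold larger (1.63 to 1.82). With RPKM as deposited, the summed level of the 3 cascade genes was nearly the same in both libraries, 249 and 250.0 RPKM. Unlike the ratios, this sum depends on the scaling. Relative to the median gene the log2 ratios of mik-1, mek-1 and mak-1 were all above 0, at 0.18, 0.19 and 0.57.

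The order of the levels differed between the strains at its lower end. In Δ3βG it ran from mek-1 through mak-1 and pkc-1 to mik-1, and no neighbours in that order had overlapping counting intervals. In Δ3βGΔncw-1 it ran from mek-1 through mak-1 and mik-1 to pkc-1. There mek-1 was 1.05 times as abundant as mak-1. Their intervals, 102 to 108 RPKM for mek-1 and 97.1 to 102 RPKM for mak-1, only just met, on the wider interval used for mek-1. Intervals that just touch do not settle whether the levels differ beyond counting error. The intervals of mik-1, 44.6 to 47.1 RPKM, and pkc-1, 41.0 to 43.7 RPKM, did not overlap. All 4 kinase genes were above the median gene of their library, from 3.52 times for mik-1 to 8.02 times for mek-1 in Δ3βG and from 3.65 times for pkc-1 to 9.04 times for mek-1 in Δ3βGΔncw-1.

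Genes whose levels in both libraries lay nearest to each member were looked up among 1117 other genes with a symbol, by the distance between log2(RPKM + 1) values over the 2 libraries. For pkc-1 the nearest was apg-1 (NCU00188) with 61.9 and 42.4 RPKM at a distance of 0.016. For mik-1 it was tom7 (NCU04181), which encodes a subunit of the mitochondrial protein import complex, with 48.0 and 45.3 RPKM at 0.075. For mek-1 it was rgb-1 (NCU09377), a regulatory subunit gene of protein phosphatase 2A, with 121 and 105 RPKM at 0.074. For mak-1 it was vma-13 (NCU02746), a vacuolar ATPase subunit gene, with 84.4 and 102 RPKM at 0.048. With 2 libraries such nearness says no more than that the pairs of values are alike.

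Upstream, the genes for the sensors and the scaffold of the pathway were also within 2-fold. Of the 4 listed, 3 were identified in the table, and wsc-2 had no entry under that symbol in the reference table. Of these 3, 0 passed the rule, beside 19.2% of all genes in either direction, so this count is near the background. The cell surface sensor gene wsc-1 (NCU06910) had 415 RPKM in Δ3βG and 382 RPKM in Δ3βGΔncw-1, 1.09-fold lower (1.07 to 1.11), with a log2 ratio of −0.12 that became 0.20 relative to the median gene. The gene ham-7 (NCU00881), which encodes a surface protein that acts as a sensor for MAK-1 signalling in cell fusion, had 171 and 250.1 RPKM. It was 1.47-fold higher (1.42 to 1.51), with a log2 ratio of 0.55 that became 0.87 relative to the median gene. The gene so (NCU02794), which encodes a scaffold protein of the cascade, had 39.5 and 42.1 RPKM. The median log2 ratio of these 3 genes was 0.088 beside −0.32 over all genes, and all 3 lay above the median gene.

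The MAP kinase cascades that run in parallel gave a setting for mik-1, mek-1 and mak-1. The MAK-2 cascade, of nrc-1, mek-2 and mak-2, serves cell fusion and sexual development, and the OS cascade, of os-4, os-5 and os-2, serves the response to osmotic stress. In all 3 cascades the gene of the last kinase had a higher log2 ratio than that of the first. For MAK-2, nrc-1 (NCU06182) had 33.2 and 30.1 RPKM, mek-2 (NCU04612) 137 and 132 RPKM, and mak-2 (NCU02393) 206 and 231 RPKM. None of these passed 2-fold, beside 19.2% of all genes that did in either direction. The folds of nrc-1 and mik-1 were alike, both 1.10-fold lower. The level of mak-2 was 6.21 times that of nrc-1 in Δ3βG and 7.67 times in Δ3βGΔncw-1, a ratio 1.24-fold larger (1.17 to 1.31), beside the 1.31-fold for mak-1 over mik-1.

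The OS cascade differed more between the strains in the genes of its first and last kinases. The MAP kinase gene os-2 (NCU07024) had 165 RPKM in Δ3βG and 365 RPKM in Δ3βGΔncw-1 and was 2.22-fold higher (2.15 to 2.28). It was the only one of the 9 cascade kinase genes past the 2-fold rule, also relative to the median gene. Over all genes 19.2% met the rule in either direction, and 17.0% relative to the median gene, so this count is near the background. The cascade partners of os-2 were lower, with 42.8 and 26.0 RPKM for os-4 (NCU03071) and 38.7 and 34.3 RPKM for os-5 (NCU00587). The latter was 1.13-fold lower and lay above the median gene. The level of os-2 was 3.85 times that of os-4 in Δ3βG and 14.0 times in Δ3βGΔncw-1. That ratio was 3.65-fold larger (3.46 to 3.85), an interval that did not overlap the one for mak-1 over mik-1.

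**Figure D3:**
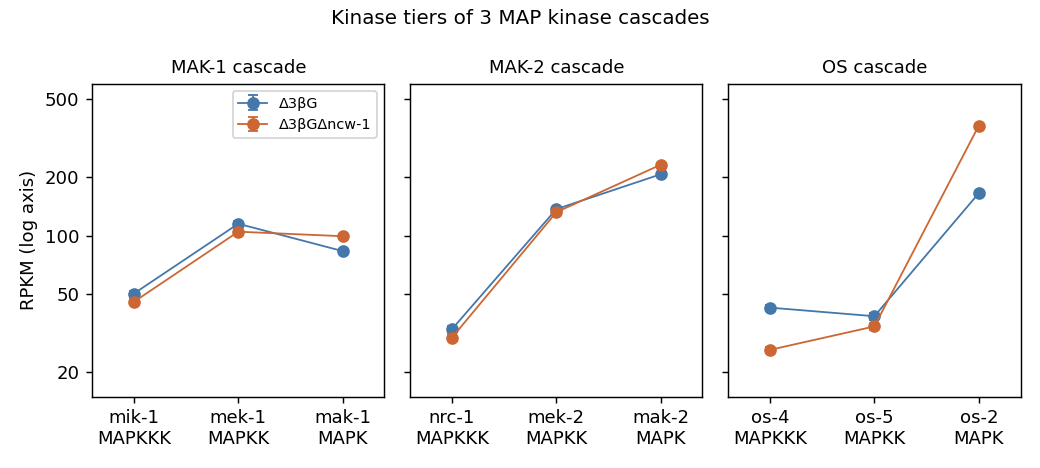
RPKM on a log axis of the MAP kinase kinase kinase (MAPKKK), MAP kinase kinase (MAPKK) and MAP kinase (MAPK) genes of the MAK-1, MAK-2 and OS cascades in the single Δ3βG and the single Δ3βGΔncw-1 library, with exact 95% Poisson intervals of the reads mostly smaller than the points. In each panel the Δ3βGΔncw-1 line is below the Δ3βG line at the MAPKKK and above it at the MAPK, by most in the OS cascade, where os-2 had 165 and 365 RPKM; relative to the median gene, mik-1 and nrc-1 were not lower.

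Downstream, the transcription factor genes adv-1 and pp-1, whose products act with the MAK-1 and MAK-2 pathways in cell fusion, went different ways. The level of adv-1 (NCU07392) was 97.5 and 148 RPKM, 1.51-fold higher (1.47 to 1.56), and that of pp-1 (NCU00340) was 143 and 100.5 RPKM, 1.42-fold lower (1.38 to 1.46). Neither passed 2-fold.

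Genes for the synthesis of wall polymers, which the pathway serves, were mostly lower. The log2 ratio was below 0 for 6 of 7, beside 69.4% of all genes, and 6 of 7 also lay below the median gene. Of the 6 that reached 10 RPKM, 2 passed 2-fold in the lower direction and 0 in the higher. Beside 11.1% of all genes in the lower direction, this was 2 genes, gs-1 and chs-4, and relative to the median gene it was 1, gs-1, beside 5.73%. The median log2 ratio of the 7, which include chs-6 below the minimum, was −0.62, or −0.30 relative to the median gene. The gene fks (NCU06871, under do in the reference table), which encodes the β-1,3-glucan synthase of the wall, had 199 and 139 RPKM. It was 1.43-fold lower (1.40 to 1.45), with a counting interval that overlapped that of pkc-1. Relative to the median gene the log2 ratio of fks was −0.19. The gene gs-1 (NCU04189, under cot-2), needed for glucan synthase activity, had 53.0 RPKM in Δ3βG and 13.01 RPKM in Δ3βGΔncw-1. It was 4.07-fold lower (3.79 to 4.38), and 2.30% of the 5988 genes had a lower log2 ratio. Among the chitin synthase genes, chs-4 (NCU09324) had 84.8 and 38.4 RPKM, chs-3 (NCU04251) 66.8 and 35.7 RPKM, chs-5 (NCU04352) 72.9 and 47.2 RPKM and chs-1 (NCU03611) 103 and 73.1 RPKM. The exception, chs-6 (NCU05268), was low in both libraries, with 1.23 and 1.87 RPKM, and did not reach 10 RPKM.

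**Figure D4:**
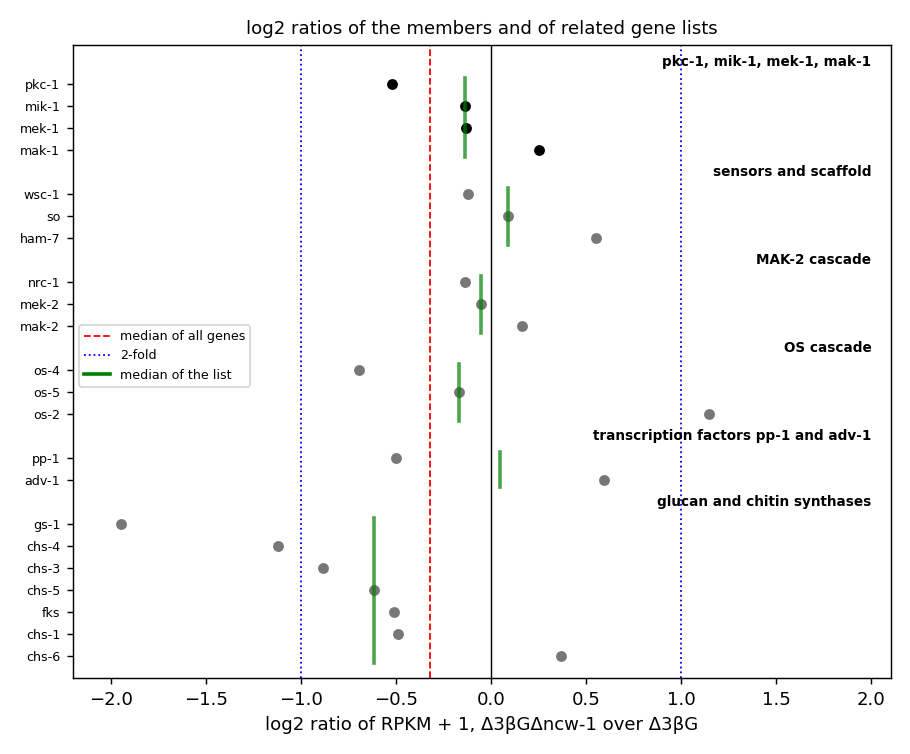
log2 ratio (RPKM + 1 of Δ3βGΔncw-1 divided by that of Δ3βG), 1 point per gene from 1 library per strain, for the 4 kinase genes and the related lists. Green bars are list medians, the dashed line is the median of all genes at −0.32 and dotted lines mark 2-fold; os-2 lies beyond the upper line and gs-1 and chs-4 beyond the lower one, of which chs-4 was within 2-fold relative to the median gene.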

How the data were processed

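Per the labels' protocols, mycelia were filtered and frozen, and RNA was isolated with TRIzol and RNeasy columns for Illumina libraries. Tools named in the submitters' processing notes, without roles, are HTSeq 0.5.4p2, DESeq 1.5.1 and TopHat2 2.0.8b. The genome build and strand setting are not given in those notes. The values are RPKM that the authors deposited, with 1 column for each library per the file headers; columns were matched by sample identifier, and 0 were left unused. Symbols and spans came from the RefSeq gene table of assembly NC12. Sequences and coordinates are not given here.

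Library totals were recovered from the smallest steps of RPKM times span. For all 9264 genes above 0 with a reference match, a model length of 50% to 100% of the span gave whole reads in both libraries, within 1e-06 reads plus 1e-09 of the read number; 8345 had a single such length. Elsewhere the smallest was used. Intervals are exact Clopper-Pearson intervals conditional on both libraries' reads, exact Poisson intervals for levels and exact conditional odds ratio intervals for ratios between genes (scipy 1.17.1), all at 95%. The recovery was tested on simulated data. The 4 deleted genes were left out of counts over all genes.

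One listed member and a class of related genes are not reported here. The members and lists were chosen with earlier results of these data known. Named genes are the members, all annotated list genes, label checks and the nearest gene to each member; neighbours were added after their values were seen. The listed rlm-1, chs-2 and chs-7 lacked those symbols in the reference table and were not used. The 9 alternatives were pseudocounts of 0.1 and 5 RPKM, minimums of 5, 50 and none, median centring, equal sums with and without the 10 highest genes of either library, and trimmed mean scaling.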

Additional observations from a re-analysis of the deposited data

How the results depend on the processing

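The count of members past 2-fold was 0 in each direction under all 9 alternatives. Across them the log2 ratio ran from −0.58 to −0.20 for pkc-1 and from 0.19 to 0.57 for mak-1, with no change of sign. Median centring and trimmed mean scaling, which remove the shift of the median gene, turned the median of the 4 members to 0.18 and 0.19, mik-1 to 0.18 and 0.18, mek-1 to 0.19 and 0.19, the MAK-2 cascade median to 0.27 and 0.27 and the OS cascade median to 0.15 and 0.15. Equal sums turned the median of adv-1 and pp-1 from 0.045 to −0.011. Over all genes, 484 were at least 2-fold higher and 664 lower. The lower count was 343 under median centring, 353 under trimmed mean scaling and 425 with a pseudocount of 5 RPKM. A minimum of 50 RPKM, under which fewer genes were counted, gave 268 higher and 240 lower.

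No paired analysis was possible because there is 1 library per genotype, and leaving out a library in turn would leave nothing to compare. Counting error was small for every member, with at least 3877 reads in each library, so depth does not limit these values; the spread between cultures is unknown.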

Other observations

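The protein-coding genes next to the members in the reference gene order were added once all other values were known. Beside pkc-1, NCU06543 had 126 and 51.6 RPKM, 2.45-fold lower, with a log2 ratio of −1.27 that became −0.95 relative to the median gene. Beside mik-1, gh47-6 (NCU02235) had 47.4 and 81.0 RPKM, 1.71-fold higher (95% counting interval 1.64 to 1.78), and NCU02233 had 30.3 and 27.3 RPKM. Both neighbours of mek-1, NCU06418 and NCU16630, were below 10 RPKM, as were both neighbours of mak-1, NCU09841 and NCU09843.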
